A study of Homo sapiens with 32 samples.

Results

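RNA of human RPE-1 cells taken 15 h after serum was returned was compared with RNA taken at 10 h, as 4 RNA-seq libraries against 4, or 8 of the 32 libraries in the series. Members were chosen by their labels alone: all RNA-seq libraries marked 15 h, and all marked 10 h. The study followed cells that had been held without serum for 18 h and then given serum for 0, 5, 10 or 15 h, and measured total RNA depleted of ribosomal RNA (RNA-seq) and ribosome-protected fragments (Ribo-seq, called footprints here), with 4 biological replicates at each time in each assay. Every library came from wild-type cells of the same established line, derived from retinal pigment epithelium and immortalised with telomerase, so the replicates share a single genetic background. Both groups had the same starvation before serum and differ only in time with serum, so serum exposure and elapsed time cannot be told apart.

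RPE-1 cells leave the cell cycle when serum is withdrawn and re-enter it together when serum returns, passing through G1, copying their DNA in S phase and then preparing to divide in G2 and mitosis. Genes for the DNA replication machinery are turned on at the G1/S border by E2F factors, and core histone genes are expressed as DNA is copied. Genes for cyclin B, the spindle, the kinetochore and cell division follow later, through MuvB-based complexes, FOXM1 and the CCAAT-binding factor NF-Y acting on their promoters. The step examined here asks which mRNAs separate cells at 15 h from cells at 10 h of that return.

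The 15 h libraries held 835855 to 1107097 counts and the 10 h libraries 645683 to 1107470, with means of 1004620 ± 117162 and 949729 ± 207995 (SD, n = 4 each). Levels are given as CPM, counts divided by library sizes scaled by the trimmed mean of M-values (TMM), so each change is relative to the other genes and not an absolute amount per cell. The epithelial keratins were abundant, with 2121 counts of KRT8 summed over the 15 h libraries and 2724 over the 10 h libraries. Of 14 markers of retinal pigment epithelium, keratins included, 6 had enough counts to be tested, among them MITF with 98 counts at 15 h and 121 at 10 h and OTX2 with 20 at 15 h and 31 at 10 h. Most pigment and visual cycle markers were at or near 0: TYR, PMEL and TTR had 0 counts in both groups, and RPE65 had 1 count at 15 h and 0 at 10 h. RDH5, of the visual cycle, had 13 counts at 15 h and 23 at 10 h, and BEST1 had 12 and 14. Of the blood markers, CD14 and CD3E had 0 counts in both groups, PTPRC had 0 at 15 h and 1 at 10 h, and the sum over the 1 tested marker, CD68, ran from 13.7 to 15.9 CPM at 15 h and from 8.19 to 20.2 CPM at 10 h. None of the 4 endothelial markers had enough counts to be tested.

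Of 8775 genes tested, 519 (5.91%) differed between 15 h and 10 h at an adjusted p under 0.05 (edgeR's quasi-likelihood test, 2-sided, Benjamini-Hochberg over all genes tested). RNA was higher at 15 h for 334 genes (3.81%) and lower for 185 (2.11%), and 1680 genes had an unadjusted p under 0.05. The fitted change was at least 2-fold for 200 of the genes that rose and 55 of those that fell, and the median log2 change of all tested genes was -0.03. In 459 of the 519 the lowest library of one time lay above the highest of the other, as it did in 958 of all 8775 tested genes. Of the 334 genes that rose, 44 were replication-dependent histone genes, 87 belonged to the lists of mitotic genes, 13 to the lists of replication and repair genes, and 174 to no list. Of the 185 that fell, 155 belonged to no list. The count depended on single libraries: it was 341 without 15 h replicate 1, 343 without 15 h replicate 4 and 333 without 10 h replicate 3. It was 717 (497 higher, 220 lower) without 10 h replicate 1. With the replicate number as a block it was 1170 (629 higher, 541 lower). The number that fell dropped to 78 without 15 h replicate 1, 75 without 15 h replicate 4, 93 without 10 h replicate 2, 92 without 10 h replicate 3 and 115 without 10 h replicate 4. Since each library is a mixture of cells, more cells in a phase of the cycle and more RNA per cell cannot be told apart.

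**Figure D1:**
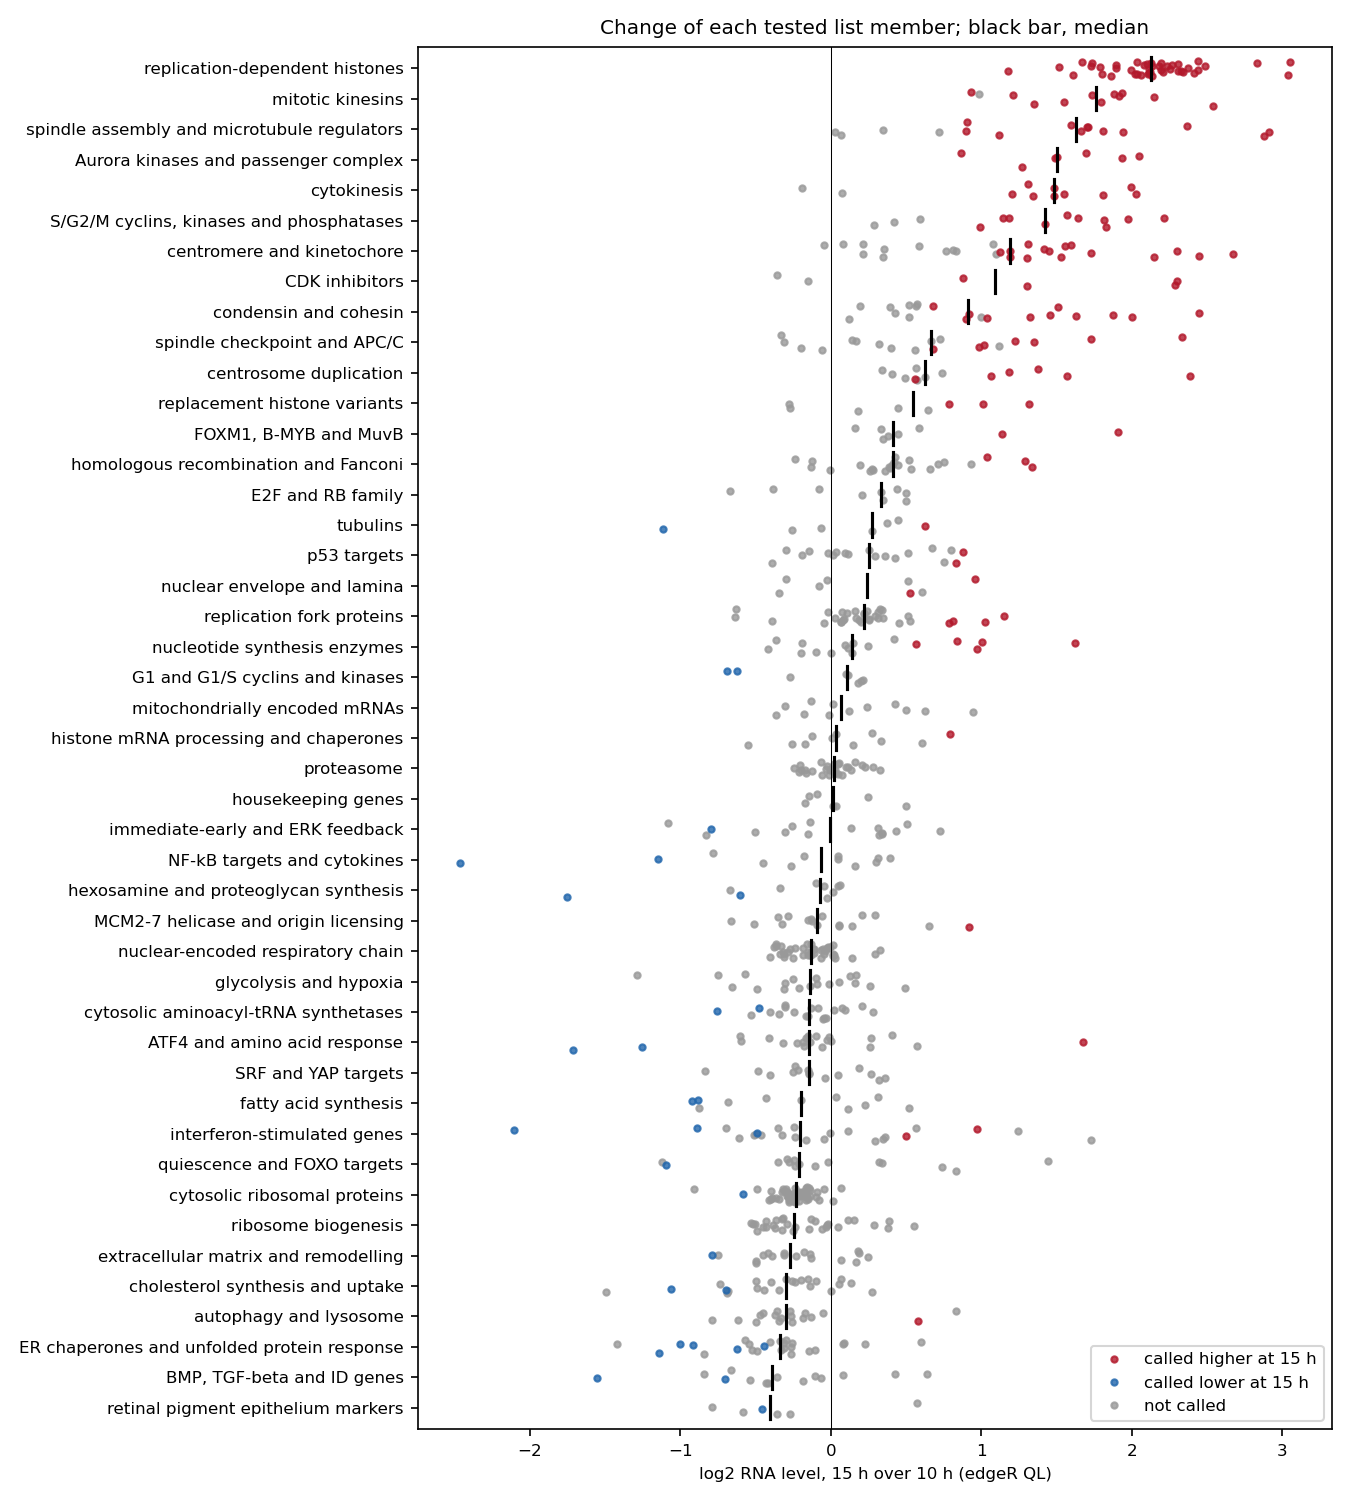
Log2 RNA level at 15 h over 10 h (x axis, edgeR) for each tested member of each gene list (rows, ordered by median). The blood cell and endothelial marker lists, with too few tested members, are left out. Points are genes, coloured by whether they were called higher, lower or neither at 15 h, and the black bar is the median. The histone row lies wholly to the right, with a median of 2.13. The mitotic kinesin, spindle assembly and Aurora rows come next, and other lists stand between the lower mitotic rows.

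Replication-dependent histone mRNAs rose as a class. These genes, which supply the histones that package newly copied DNA, were listed by name: 63 genes, of which 58 were in the table and 44 had enough counts to be tested. All 44 were higher at 15 h, by log2 changes of 1.17 (H3C6) to 3.05 (H1-3), with a median of 2.13 against -0.03 for all genes tested. The filter keeps a gene with enough counts at any time, so it can admit genes through their 15 h level. The listed genes that were not tested are not part of this count. Together the 58 genes in the table, tested or not, made up 8.65 ± 0.573% of all counts at 15 h and 2.18 ± 0.339% at 10 h (SD, n = 4 each). The libraries did not overlap, at 7.94 to 9.33% and 1.77 to 2.56%. The change was of like size in the linker histones and in the core classes. H1 genes summed to 12709 ± 657 CPM at 15 h and 2837 ± 459 CPM at 10 h, a ratio of 4.48 over 5 genes. H2A genes (12) summed to 23596 ± 2346 CPM at 15 h and 5822 ± 803 CPM at 10 h, a ratio of 4.05. H2B genes (14) gave 21567 ± 2349 CPM at 15 h and 4749 ± 728 CPM at 10 h, a ratio of 4.54. H3 genes (6) had the largest ratio of sums, 5.14, and H4 genes (7) the smallest, 3.80. Within a class the coding sequences are nearly identical and the handling of shared reads is not given in the sources used here, so the split of counts among single histone genes is uncertain and the class sums are the firmer measure.

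Single histone genes show how tightly the replicates agreed. H1-3, a linker histone, had 255, 201, 274 and 252 CPM in the 15 h libraries and 39.9, 31.7, 23.4 and 21.6 CPM in the 10 h libraries, and rose by 3.05 ± 0.25 on the log2 scale (SE, adjusted p = 8.03e-09, edgeR). Every 15 h library lay at least 5 times above the 10 h libraries' highest value in that gene. H2BC3 had 1032, 809, 1052 and 1063 CPM at 15 h and 187, 197, 173 and 147 CPM at 10 h, a log2 change of 2.49 ± 0.16, and the groups were again far apart although 15 h replicate 2 was the lowest of its group. H3C10 had 7414, 6217, 8906 and 7353 CPM at 15 h and 1436, 1655, 1430.0 and 1087 CPM at 10 h (log2 change 2.41 ± 0.14, adjusted p = 1.34e-10, edgeR). Per kilobase of listed length H3C10 was the most abundant H3 gene at 15 h, at 21289 CPM per kb, against 3994 at 10 h. H1-1 and H3C4 also rose, by log2 changes of 2.83 ± 0.37 and 3.04 ± 0.33, from few counts: 23 and 19 counts over the 10 h libraries. They could pass the count filter through their 15 h libraries, so their calls add no weight of their own to the class.

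Histone genes outside that list were mixed. H2BC26 and H2AC25, which are in neither histone list and were chosen after their values were seen, rose by 2.10 ± 0.30 and 1.72 ± 0.17. Over all genes tested 3.81% rose. Of 12 replacement variants 8 were tested and 3 rose, with a median log2 change of 0.55. Apart from H2AX, most of these are made throughout the cycle and carry polyadenylated mRNAs. H2AX, the variant phosphorylated at DNA breaks, had 244, 313, 349.8 and 234 CPM at 15 h and 90.1, 144, 134 and 91 CPM at 10 h (log2 change 1.32 ± 0.19, adjusted p = 6.25e-05, edgeR). H2AZ1 rose by 1.02 ± 0.22 on the log2 scale (SE, adjusted p = 0.00532, edgeR), but its groups overlapped, since 15 h replicate 2 had 378 CPM and 10 h replicate 1 had 431 CPM. H3-3B rose by 0.79 ± 0.18 on the log2 scale (SE, adjusted p = 0.00793, edgeR). Of 11 tested genes for histone mRNA processing and histone chaperones, 1 rose: the chaperone ASF1B (log2 change 0.79 ± 0.22, adjusted p = 0.0318, edgeR), whose call was lost without 15 h replicate 3 or 4 or 10 h replicate 3 or 4 (adjusted p up to 0.124). The count was 2 without 10 h replicate 1. SLBP, which binds the stem-loop at the end of histone mRNAs, had a log2 change of -0.25 (adjusted p = 0.391, edgeR).

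**Figure D2:**
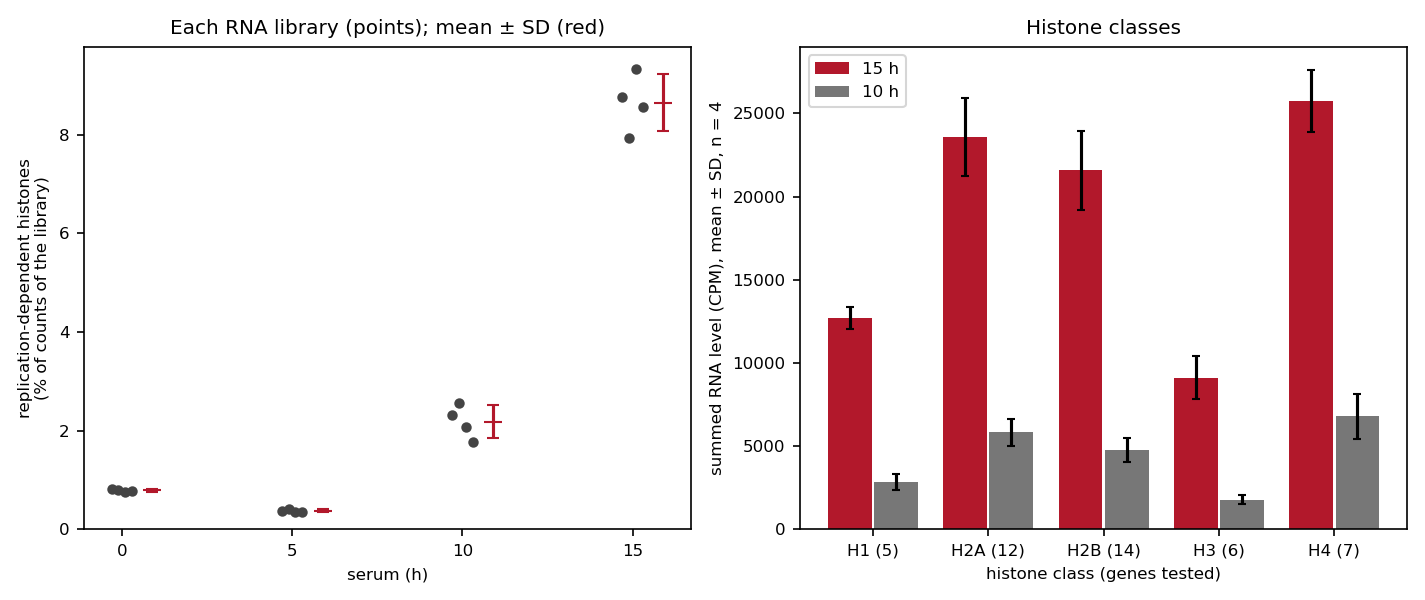
Left, the share of all RNA counts taken by replication-dependent histone genes in each library (points, % of counts) at 0, 5, 10 and 15 h of serum, with mean ± SD in red; the 15 h libraries sit between 7.94 and 9.33%, above all others. Right, summed CPM of the tested genes of each histone class at 15 h (red) and 10 h (grey), mean ± SD over 4 libraries; each class is 3.80 to 5.14 times higher at 15 h.

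The genes of G2 and mitosis rose next to the histones. Taken over 10 lists, 153 genes were listed and 143 tested. Of these 87 (60.8%) rose, against 3.81% of all genes tested, and 0 fell, with a median log2 change of 1.12. The 3.81% is the share to set beside each list count of rises given here and below. At an unadjusted p under 0.05, and by DESeq2, the number lower was also 0. Cyclins, kinases and phosphatases of S, G2 and M phase had 13 tested members, of which 10 rose, with a median of 1.42. CCNB1 and CCNB2 encode the B-type cyclins that switch on CDK1 at entry into mitosis. CCNB2 had 222, 147, 185 and 198 CPM at 15 h and 54.3, 38.4, 34.3 and 33.3 CPM at 10 h, a rise of 2.22 ± 0.18 on the log2 scale (SE, adjusted p = 1.02e-08, edgeR). CCNB1 had 608, 417, 528 and 660.3 CPM at 15 h and 211, 159, 186 and 154 CPM at 10 h (log2 change 1.64 ± 0.18, adjusted p = 1.03e-06, edgeR). Neither pair of groups overlapped. CCNA2, the cyclin of S phase and G2, averaged 343 ± 58 CPM at 15 h and 115 ± 31.1 CPM at 10 h (log2 change 1.57 ± 0.18, adjusted p = 2.86e-06, edgeR). CDK1 itself averaged 458 ± 140.2 CPM at 15 h and 130.3 ± 77.1 CPM at 10 h (log2 change 1.81 ± 0.30, adjusted p = 0.000439, edgeR), and its libraries spread widely at both times, from 273 to 606 CPM at 15 h and from 75.9 to 244 CPM at 10 h. CCNF, an F-box protein that directs ubiquitin ligases late in the cycle, rose by 1.98 ± 0.25 on the log2 scale (SE, adjusted p = 9.82e-06, edgeR).

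The motors and regulators that build the spindle showed some of the largest changes. Of 12 tested mitotic kinesins 11 rose, with a median log2 change of 1.76. KIF20A, a kinesin of the central spindle, had 261, 207, 288 and 327 CPM at 15 h and 57.4, 40.4, 43.7 and 44.1 CPM at 10 h, a rise of 2.54 ± 0.17 on the log2 scale (SE, adjusted p = 5e-10, edgeR). KIF2C, which takes microtubules apart at centromeres, averaged 348 ± 49.3 CPM at 15 h and 90.9 ± 15.2 CPM at 10 h (log2 change 1.94 ± 0.17, adjusted p = 4.7e-08, edgeR). KIF4A and KIF15 rose by 1.73 ± 0.16 and 1.88 ± 0.22. Of 16 tested spindle assembly and microtubule genes 12 rose, with a median of 1.63. HMMR, a spindle assembly protein, had 469.6, 207, 318 and 434 CPM at 15 h and 85, 19.2, 26.5 and 55 CPM at 10 h (log2 change 2.91 ± 0.38, adjusted p = 4.37e-05, edgeR). Its groups did not overlap, but replicate 1 was the highest and replicate 2 the lowest library at each time. DLGAP5, which stabilises microtubules at kinetochores, also had its highest library in replicate 1 at each time, with 372, 171, 236 and 323 CPM at 15 h and 72.7, 26.9, 23.4 and 24.3 CPM at 10 h (log2 change 2.88 ± 0.33, adjusted p = 4.77e-06, edgeR). NUSAP1 and PRC1, which bundle spindle microtubules, rose by 2.37 ± 0.21 and 1.81 ± 0.16.

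All 7 members of the Aurora kinase and chromosomal passenger list rose, with a median log2 change of 1.51. BIRC5, the survivin subunit of the passenger complex, was among the tightest, with 281, 228, 261 and 309 CPM at 15 h and 67.6, 67.3, 62.4 and 62.1 CPM at 10 h (log2 change 2.05 ± 0.15, adjusted p = 2.71e-09, edgeR). AURKB, the kinase of that complex, averaged 177 ± 13.7 CPM at 15 h and 46.5 ± 8.73 CPM at 10 h (log2 change 1.94 ± 0.20, adjusted p = 3.9e-07, edgeR). AURKA, the Aurora kinase of the spindle poles, and its activator TPX2 rose by 1.51 ± 0.17 and 1.49 ± 0.20.

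At the centromere and kinetochore, where chromosomes attach to the spindle, 15 of 27 tested genes rose and 0 fell, with a median log2 change of 1.19. CENPF, a kinetochore protein that accumulates in G2, had 698, 556, 463 and 589.5 CPM at 15 h and 147, 60.5, 71.8 and 81.1 CPM at 10 h, a rise of 2.67 ± 0.25 on the log2 scale (SE, adjusted p = 9.89e-08, edgeR). The lowest 15 h library stood at 463 CPM and the highest 10 h library at 147 CPM. KNL1, the scaffold for checkpoint kinases, had 284, 193, 192 and 314 CPM at 15 h and 67.6, 26.9, 37.5 and 46.8 CPM at 10 h (log2 change 2.45 ± 0.24, adjusted p = 1.43e-07, edgeR). SPC24, a subunit of the NDC80 complex, and HJURP, the chaperone that loads the centromeric histone CENP-A, rose by 1.73 ± 0.22 and 1.31 ± 0.17. The spindle checkpoint and anaphase-promoting complex list was split: 7 of 19 tested members rose, with a median of 0.67. Among those that rose was PTTG1, the securin that inhibits separase until anaphase, at 352, 175, 256 and 304 CPM at 15 h and 81.9, 35.6, 51.5 and 45.9 CPM at 10 h (log2 change 2.34 ± 0.24, adjusted p = 3.9e-07, edgeR). UBE2C, the ubiquitin-conjugating enzyme of the complex, rose by 1.73 ± 0.17 on the log2 scale (SE, adjusted p = 2.6e-07, edgeR), and the checkpoint kinases BUB1 and BUB1B by 1.35 ± 0.17 and 1.22 ± 0.17.

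Chromosome structure and division genes followed. Of 20 tested condensin, cohesin and topoisomerase genes 11 rose, with a median log2 change of 0.91. TOP2A, the topoisomerase that untangles sister chromatids, had 1959, 1646, 1597 and 1990.0 CPM at 15 h and 454, 283, 248 and 331 CPM at 10 h (log2 change 2.45 ± 0.19, adjusted p = 7.12e-09, edgeR). The condensin subunits NCAPD2, SMC4 and NCAPG2 rose by 2.0 ± 0.28, 1.46 ± 0.21 and 1.32 ± 0.15. Of 11 cytokinesis genes tested 9 rose, with a median of 1.48. ANLN, the scaffold of the contractile ring, averaged 927 ± 182 CPM at 15 h and 227 ± 86.9 CPM at 10 h (log2 change 2.03 ± 0.24, adjusted p = 5.67e-06, edgeR). RACGAP1 and DIAPH3 rose by 1.48 ± 0.15 and 1.31 ± 0.14. The other members, RHOA and MYH9, which cells also use outside division, had log2 changes of 0.08 and -0.19 (adjusted p = 0.766 and 0.908, edgeR). Of 13 centrosome duplication genes 6 rose, with a median of 0.62, among them NEK2, a kinase of centrosome separation (log2 change 2.39 ± 0.27, adjusted p = 1.57e-06, edgeR), CEP152 (log2 change 1.57 ± 0.20, adjusted p = 1.25e-05, edgeR) and PLK4, the kinase that starts centriole duplication (log2 change 1.19 ± 0.25, adjusted p = 0.0046, edgeR). TUBA1B, an alpha-tubulin, rose by 0.63 ± 0.11 on the log2 scale (SE, adjusted p = 0.00049, edgeR), the only rise among 7 tested tubulins, whose shared sequence makes the split among them uncertain.

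**Figure D3:**
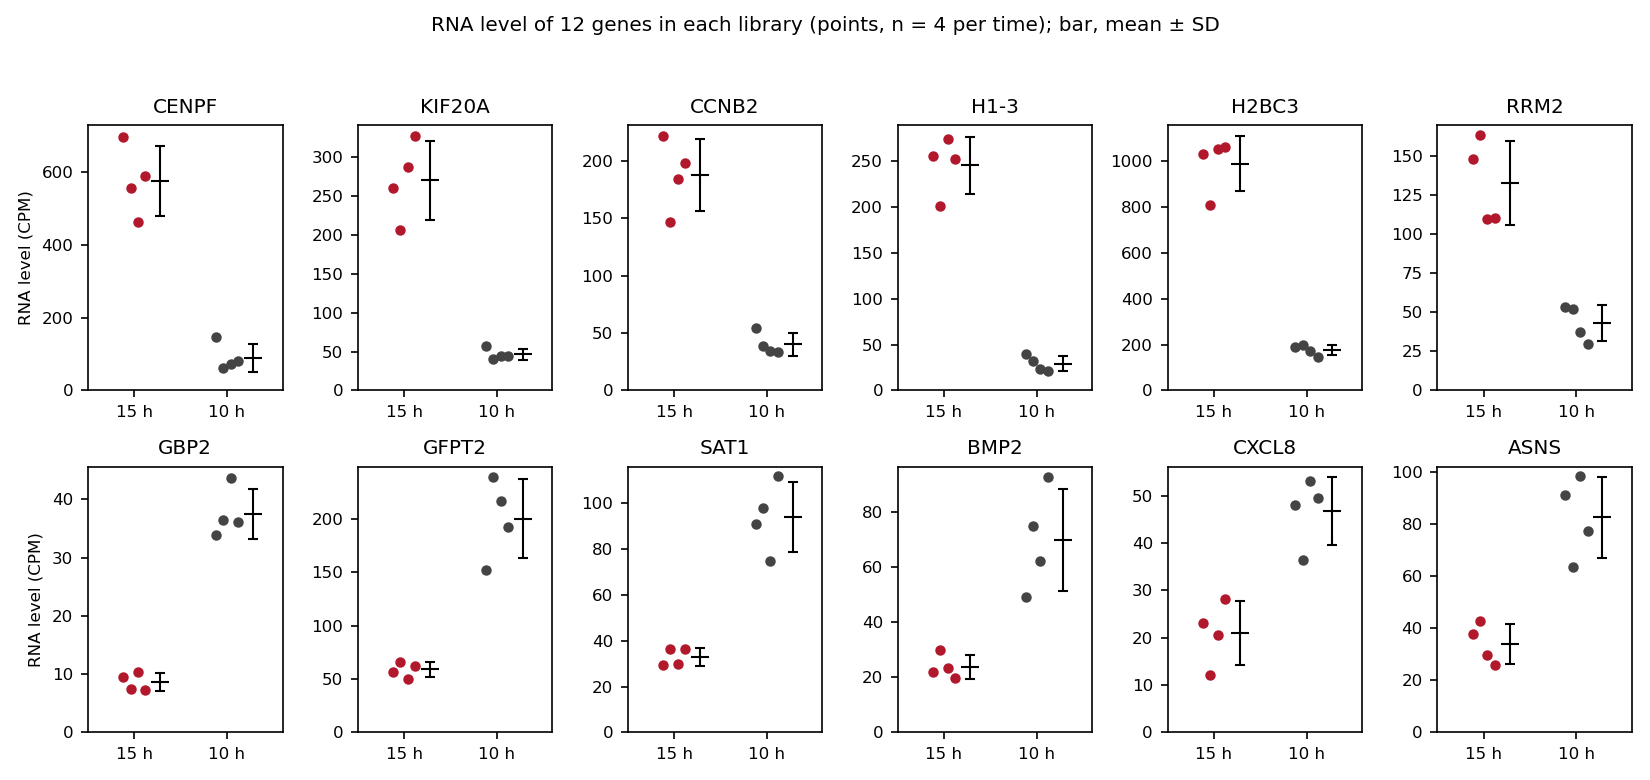
RNA level (CPM) of 12 genes in each of the 4 libraries at 15 h (red) and at 10 h (grey), with mean ± SD beside the points. Upper row, genes that rose: every 15 h library lies above every 10 h library; lower row, genes that fell, with every 15 h library below every 10 h library.

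Regulators of these genes were also listed, and their counts of rises are to be set against 3.81% of all genes tested. Of 8 tested members of the FOXM1, B-MYB and MuvB list 2 rose, with a median log2 change of 0.41. They were the proliferation marker MKI67 (log2 change 1.91 ± 0.23, adjusted p = 3.91e-06, edgeR) and the transcription factor FOXM1, which had 46.2, 67.3, 36.1 and 34.4 CPM at 15 h and 18.4, 26.9, 21.9 and 17.1 CPM at 10 h (log2 change 1.14 ± 0.30, adjusted p = 0.0239, edgeR). The call of FOXM1 was lost without 15 h replicate 2 or 10 h replicate 3 or 4 (adjusted p up to 0.0928), which leaves MKI67. Inhibitors of cyclin-dependent kinases also rose: 4 of 6 tested, with a median of 1.09. CDKN3, a phosphatase that acts on these kinases, had 125, 42, 80.04 and 105 CPM at 15 h and 20.5, 14.4, 21.9 and 15.3 CPM at 10 h (log2 change 2.30 ± 0.31, adjusted p = 2.63e-05, edgeR). CDKN2D and CDKN2C, inhibitors of the cyclin D kinases, rose by 2.29 ± 0.38 and 1.30 ± 0.26. CDKN1A, the p53-induced inhibitor p21, averaged 89 ± 14.3 CPM at 15 h and 47.8 ± 14.1 CPM at 10 h (log2 change 0.88 ± 0.20, adjusted p = 0.00758, edgeR), with no overlap. MDM2, which marks p53 for degradation, rose by 0.83 ± 0.20 on the log2 scale (SE, adjusted p = 0.0116, edgeR), so that 2 of 19 tested p53 targets rose, at a list median of 0.26.

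A minority of the replication machinery was called. Of 92 tested genes for origin licensing, replication forks, nucleotide synthesis and recombination repair, 13 (14.1%) rose, against 3.81% of all genes tested, and 0 fell, with a median log2 change of 0.22. At an unadjusted p under 0.05, 6 were lower, and DESeq2 called 1 licensing gene lower. With the replicate number as a block 3 licensing genes were higher and 2 lower, and 5 fork genes were higher and 2 lower. Of 17 licensing genes 1 rose, MCM8 (log2 change 0.92 ± 0.21, adjusted p = 0.00907, edgeR), and the median was -0.09. CDC6, which loads the replicative helicase, averaged 286 ± 6.40 CPM at 15 h and 365 ± 51.6 CPM at 10 h, and PCNA, the sliding clamp, 1334 ± 242 and 1185 ± 253 CPM. Neither passed the test (log2 changes of -0.35 and 0.17, adjusted p = 0.28 and 0.655, edgeR). The libraries of CDC6 at the 2 times did not overlap, and its lowest adjusted p over the alternative fits was 0.0229 (edgeR). Of 34 fork genes 4 rose, with a median of 0.22: POLA1, the catalytic subunit of polymerase alpha (log2 change 0.78 ± 0.15, adjusted p = 0.00179, edgeR), the helicase partners CDC45 (log2 change 1.03 ± 0.21, adjusted p = 0.00325, edgeR) and GINS4 (log2 change 1.15 ± 0.25, adjusted p = 0.00585, edgeR), and the ligase LIG1, whose call was lost without 15 h replicate 2 or 3 or 10 h replicate 1, 3 or 4 (adjusted p up to 0.106).

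Among the called replication and repair genes, the largest changes were in nucleotide enzymes and the Fanconi pathway. RRM2, the regulated subunit of ribonucleotide reductase, had 148, 164, 109.7 and 110.4 CPM at 15 h and 53.3, 51.9, 37.5 and 29.7 CPM at 10 h (log2 change 1.62 ± 0.22, adjusted p = 2.72e-05, edgeR), with no overlap. TK1, thymidine kinase, averaged 101 ± 11.6 CPM at 15 h and 50.6 ± 7.96 CPM at 10 h (log2 change 1.0 ± 0.19, adjusted p = 0.00132, edgeR). With TYMS, PAICS and RRM1, 5 of 17 tested nucleotide enzymes rose, a count of 3 without 15 h replicate 1, without 15 h replicate 2, without 10 h replicate 2 or without 10 h replicate 4, and 2 without 10 h replicate 3. The repair genes FANCD2 and FANCI, which encode the paired proteins that mark crosslinked DNA, averaged 205 ± 12.3 and 467 ± 75.7 CPM at 15 h, against 81 ± 12.9 and 189.7 ± 46.6 CPM at 10 h, and rose by 1.34 ± 0.18 and 1.29 ± 0.18. With FANCG (log2 change 1.04 ± 0.17, adjusted p = 0.000318, edgeR) they were the 3 of 24 tested recombination and Fanconi genes that rose, at a median of 0.41. That count was 9 without 10 h replicate 1.

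No gene of the G1 and G1/S border lists was called higher. Of 9 tested E2F and RB family genes edgeR and DESeq2 each called 0 in either direction, while 4 were higher and 1 lower at an unadjusted p under 0.05, and edgeR called 2 higher without 10 h replicate 1. Of 8 tested G1 cyclins and kinases 0 rose, also by DESeq2 and at an unadjusted p under 0.05, and 2 fell. CDC25A, the phosphatase that opens S phase, had 89.3, 126, 90.4 and 73.9 CPM at 15 h and 136, 163, 149.9 and 164 CPM at 10 h (log2 change -0.69 ± 0.18, adjusted p = 0.0223, edgeR). CCND1, cyclin D1, fell (log2 change -0.62 ± 0.18, adjusted p = 0.0451, edgeR), with overlapping groups. Both calls were lost without 15 h replicate 1, 3 or 4 or 10 h replicate 2, 3 or 4, and the highest adjusted p was 0.145 for CDC25A and 0.231 for CCND1. CCNE1 and CCNE2, the E-type cyclins, averaged 52.4 ± 5.58 and 108 ± 30.1 CPM at 15 h, against 45.8 ± 6.84 and 129 ± 62.4 CPM at 10 h. Neither was called (log2 changes of 0.18 and -0.27, adjusted p = 0.636 and 0.695, edgeR), and the sign for CCNE2 turned without 10 h replicate 1 (0.07). MYC had a log2 change of -0.51 (adjusted p = 0.107, edgeR), and its lowest adjusted p over the alternative fits was 0.0106 (edgeR).

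The falls were smaller and spread over many kinds of gene. They were also fewer, though with the replicate number as a block 629 genes rose and 541 fell. Over all 8775 tested genes 2.11% fell in the fit without that block, the share to set beside each list count given here and below. A count of 1 or 2 falls in a short list is a statement about those genes and not about the list. GFPT2, which starts the hexosamine pathway that feeds glycan synthesis, had 56.7, 66.3, 50.4 and 62.5 CPM at 15 h and 153, 239, 217 and 193 CPM at 10 h (log2 change -1.75 ± 0.18, adjusted p = 4.28e-07, edgeR). With UGDH, which makes the sugar donor for proteoglycans (log2 change -0.60 ± 0.13, adjusted p = 0.00454, edgeR), it was 1 of 2 falls among 10 tested genes of hexosamine and proteoglycan synthesis, whose median was -0.07. SAT1, which acetylates polyamines, had 29.4, 36.4, 29.7 and 36.5 CPM at 15 h and 91.2, 98, 74.9 and 112 CPM at 10 h (log2 change -1.51 ± 0.16, adjusted p = 8.89e-07, edgeR). CA11, a carbonic anhydrase-related protein, had 24.2, 29.9, 25.8 and 22.9 CPM at 15 h and 59.4, 82.7, 78 and 70.3 CPM at 10 h (log2 change -1.49 ± 0.19, adjusted p = 1.08e-05, edgeR). None of these groups overlapped.

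Several genes of secreted signals were lower, in lists with few falls, where 2.11% of all genes tested fell. BMP2, a bone morphogenetic protein, had 22.1, 29.9, 23.2 and 19.8 CPM at 15 h and 49.2, 75, 62.4 and 92.8 CPM at 10 h (log2 change -1.55 ± 0.24, adjusted p = 0.000156, edgeR). The BMP, TGF-beta and ID list had a median of -0.39 over 14 tested genes, of which 2 fell, BMP2 and its antagonist GREM1, and 0 rose, as by DESeq2, with 1 higher at an unadjusted p under 0.05. The call of GREM1 was lost without 15 h replicate 1, 3 or 4 or 10 h replicate 2 or 4 (adjusted p up to 0.108). CXCL8, a neutrophil chemokine, had 23.1, 12.2, 20.7 and 28.1 CPM at 15 h and 48.1, 36.5, 53.1 and 49.5 CPM at 10 h (log2 change -1.15 ± 0.23, adjusted p = 0.00283, edgeR). PTGS2, the inducible cyclooxygenase, had few counts, with 0, 0, 2.58 and 1.04 CPM at 15 h and 4.10, 4.80, 7.80 and 4.50 CPM at 10 h, and its call was lost without 15 h replicate 1, 2 or 4 or 10 h replicate 3 (adjusted p up to 0.0928). These were the 2 falls among 12 tested NF-kB targets. GBP2, an interferon-induced GTPase, had 9.45, 7.47, 10.3 and 7.29 CPM at 15 h and 33.8, 36.5, 43.7 and 36 CPM at 10 h (log2 change -2.10 ± 0.24, adjusted p = 2.14e-06, edgeR), the clearest of 3 falls among 24 tested interferon-stimulated genes (with ISG15 and HLA-C). ISG15 fell (log2 change -0.89 ± 0.19, adjusted p = 0.00515, edgeR), and the call of HLA-C was lost without 15 h replicate 1 or 4 or 10 h replicate 2 or 3 (adjusted p up to 0.154). The list moved in both directions: RIGI, a sensor of viral RNA, rose (log2 change 0.97 ± 0.23, adjusted p = 0.0126, edgeR), a call lost without 15 h replicate 1 (adjusted p up to 0.0548). ADAMTS1, a secreted metalloproteinase, averaged 341 ± 62 CPM at 15 h and 591 ± 130.2 CPM at 10 h (log2 change -0.79 ± 0.17, adjusted p = 0.00436, edgeR) and was the 1 fall among 18 tested matrix genes, a count of 2 without 15 h replicate 2 or 10 h replicate 1. CITED2, a transcriptional co-regulator, was the 1 fall among 15 tested quiescence and FOXO targets (log2 change -1.10 ± 0.20, adjusted p = 0.000771, edgeR).

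Genes of the secretory pathway and of amino acid supply also held falls, to be set against 2.11% of all genes tested. Of 26 tested chaperones and folding factors of the endoplasmic reticulum (ER) 5 fell (HYOU1, CRELD2, SDF2L1, DNAJC3 and PDIA4) and 0 rose, also by DESeq2 and at an unadjusted p under 0.05, and the median log2 change was -0.34. The number that fell was 3 without 15 h replicate 3, 15 h replicate 4 or 10 h replicate 4. HYOU1, an ER chaperone, had 63, 97.2, 62 and 65.6 CPM at 15 h and 111, 176, 136 and 156 CPM at 10 h (log2 change -1.0 ± 0.20, adjusted p = 0.00204, edgeR). CRELD2 and SDF2L1, which are induced by unfolded proteins, fell, with log2 changes of -0.91 ± 0.16 and -1.14 ± 0.24. ASNS, asparagine synthetase, had 37.8, 43, 29.7 and 26 CPM at 15 h and 91.2, 63.4, 98.3 and 77.5 CPM at 10 h (log2 change -1.25 ± 0.21, adjusted p = 0.000379, edgeR). NUPR1, a stress-induced nuclear protein, fell (log2 change -1.71 ± 0.36, adjusted p = 0.00416, edgeR). The cystine transporter SLC7A11 moved the other way, with 24.2, 30.8, 24.5 and 43.7 CPM at 15 h and 11.3, 6.73, 10.9 and 9.91 CPM at 10 h (log2 change 1.68 ± 0.27, adjusted p = 0.000242, edgeR), so the 22 tested ATF4 and amino acid genes gave 1 rise and 2 falls. The count of rises was 2 without 15 h replicate 2. Of 20 tested aminoacyl-tRNA synthetases, WARS1 and SARS1 fell, with log2 changes of -0.76 ± 0.16 and -0.48 ± 0.11. SCD, the stearoyl-CoA desaturase, fell (log2 change -0.92 ± 0.18, adjusted p = 0.00201, edgeR), 1 of 2 falls, with FADS2, among 11 fatty acid genes, a count of 1 without 15 h replicate 1, 15 h replicate 3, 10 h replicate 2 or 10 h replicate 4. Of 23 tested cholesterol genes DHCR7 and HMGCS1 fell, with a median of -0.30, and 1 fell without 15 h replicate 1, 15 h replicate 4 or 10 h replicate 3.

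In all, 7 gene groups of growth and metabolism had 0 calls by edgeR in either direction: 30 ribosome biogenesis genes (median log2 change -0.24), 42 nuclear genes of the respiratory chain (-0.13), 12 mitochondrially encoded mRNAs (0.07), 29 proteasome genes (0.02), 19 glycolysis and hypoxia genes (-0.14), 15 targets of SRF and YAP (-0.15) and 7 housekeeping genes (0.02). At an unadjusted p under 0.05 the numbers higher and lower were 1 and 7 in ribosome biogenesis, 0 and 3 in the respiratory chain, 3 and 0 among mitochondrially encoded mRNAs, 1 and 0 in the proteasome, 0 and 2 in glycolysis, 1 and 0 among SRF and YAP targets and 1 and 0 among housekeeping genes. DESeq2 called 2 ribosome biogenesis genes lower and 1 gene higher in each of the mitochondrial, proteasome and housekeeping lists, and 0 in the others. These counts are from the fit without a replicate block. With the replicate number as a block each of the 7 groups held at least 1 call, as listed in the closing observations. A gene that was not called is not thereby shown to be level. Of 60 tested ribosomal protein genes 58 had a log2 change below 0, with a median of -0.23, and 1 was called, RPL29; shared sequence among ribosomal protein genes and their pseudogenes makes single values uncertain. That call was lost in 7 of the 8 fits that left out 1 library, all but the one without 10 h replicate 4 (adjusted p up to 0.153). ACTB and GAPDH, usual reference genes, had log2 changes of -0.15 and -0.09 (adjusted p = 0.798 and 0.716, edgeR), and the sign for ACTB turned without 15 h replicate 4 (0.01) or 10 h replicate 2 (0.08). DDIT4, an inhibitor of mTORC1, and TXNIP, which restrains glucose uptake, had log2 changes of -0.32 and 0.34 and were not called (adjusted p = 0.83 and 0.221, edgeR). The lowest adjusted p of TXNIP over the alternative fits was 0.0359 (edgeR). The sign for DDIT4 turned without 15 h replicate 4 (0.05) or 10 h replicate 3 (0.15). In the remaining lists, TMPO, a protein of the nuclear envelope, rose by 0.96 ± 0.18 on the log2 scale (SE, adjusted p = 0.00121, edgeR) as 1 of 2, with LBR, among 8 envelope and lamina genes, a count of 1 without 15 h replicate 4 or 10 h replicate 3. TUBB3 fell among the tubulins, SPRY2 among 16 immediate-early and ERK feedback genes, and KRT18 among 6 retinal pigment epithelium markers, while GLA rose among 18 autophagy and lysosome genes. The calls of TUBB3, SPRY2, KRT18 and GLA were lost without 3, 1, 5 and 6 of the 8 libraries in turn (adjusted p up to 0.0833, 0.0556, 0.155 and 0.15); for SPRY2 the library was 15 h replicate 4 (2 immediate-early genes fell without 15 h replicate 2 or 10 h replicate 1), for TUBB3 15 h replicate 1 and 10 h replicates 2 and 3, for KRT18 15 h replicates 1 and 4 and 10 h replicates 2, 3 and 4, and for GLA 15 h replicates 1, 3 and 4 and 10 h replicates 2, 3 and 4.

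Ranked by size alone, the 12 largest rises among called genes with at least 10 CPM and no overlap were SAPCD2, H1-3, H3C4, HMMR, DLGAP5, H1-1, CDCA3, CENPF, KIF20A, H2BC3, KNL1 and TOP2A. Of these, SAPCD2, H3C4, H1-1 and CDCA3 had few counts at 10 h and could pass the count filter through their 15 h libraries. The size of the first of the 12 rests on 1 library. SAPCD2 had 395, 13.1, 18.1 and 20.8 CPM at 15 h and 7.17, 2.88, 6.24 and 3.60 CPM at 10 h, and its log2 change of 4.50 became 1.85 without 15 h replicate 1. Its call was kept without that library, and was lost without 10 h replicate 1, 2, 3 or 4 (adjusted p up to 0.145). CDCA3, which triggers destruction of the mitotic inhibitor WEE1, had 64.1, 39.2, 45.2 and 49.99 CPM at 15 h and 7.17, 5.77, 17.2 and 2.70 CPM at 10 h (log2 change 2.73 ± 0.34, adjusted p = 5.67e-06, edgeR). The 12 largest falls were BET1L, GBP2, GFPT2, IL33, NUPR1, PODXL, TFAP4, GLRX, BMP2, MAP2K5, SAT1 and CA11. BET1L, a Golgi SNARE, had 3.15, 4.67, 1.29 and 2.08 CPM at 15 h and 18.4, 12.5, 15.6 and 12.6 CPM at 10 h (log2 change -2.28 ± 0.46, adjusted p = 0.00274, edgeR). GLRX, a glutaredoxin, had 5.25, 7.47, 6.46 and 1.04 CPM at 15 h and 16.4, 12.5, 12.5 and 19.8 CPM at 10 h (log2 change -1.59 ± 0.36, adjusted p = 0.00723, edgeR). Other falls depended on single libraries. The call of IL33 was lost without 15 h replicate 1, 2, 3 or 4 or 10 h replicate 1, 3 or 4 (adjusted p up to 0.132), that of PODXL without 15 h replicate 1 or 4 or 10 h replicate 2 (adjusted p up to 0.0887), that of TFAP4 without 15 h replicate 4 or 10 h replicate 2 (adjusted p up to 0.0694) and that of MAP2K5 without 15 h replicate 1, 2, 3 or 4 or 10 h replicate 1, 3 or 4 (adjusted p up to 0.155).

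The courses of the rises and falls over all 4 times are given here as a description. Part of their shape is fixed by the choice of genes. A gene that rose is not free to be highest at 10 h, nor one that fell at 15 h. The same counts were not made over all tested genes. Of the 334 genes that rose, the mean level over the 4 times was highest at 15 h for 306, at 0 h for 22 and at 5 h for 6. All 44 histone genes were highest at 15 h, and 42 of them were lowest at 5 h. Of the 87 mitotic genes that rose, 85 were highest at 15 h and 85 lowest at 5 h, and 22 were still lower at 10 h than in starved cells at 0 h. Of the 56 mitotic genes tested and not called, 45 were highest at 15 h and 38 lowest at 5 h. KIF20A averaged 286 ± 37.3 CPM in starved cells, then 11.3 ± 2.27 at 5 h, 46.4 ± 7.50 at 10 h and 270.5 ± 50.6 at 15 h, so its level at 15 h was close to that of starved cells. PTTG1 had a like course, with 262 ± 62 CPM in starved cells, then 34.4 ± 3.56 at 5 h, 53.7 ± 19.9 at 10 h and 272 ± 75.6 at 15 h. TOP2A instead ended far above its start, with 145 ± 27.5 CPM in starved cells, then 31 ± 11.2 at 5 h, 329 ± 89.9 at 10 h and 1798 ± 205 at 15 h. Of the 185 genes that fell, the level was highest at 5 h for 94, at 0 h for 51 and at 10 h for 40. CXCL8 averaged 1.72 ± 1.85 CPM in starved cells, then 1248 ± 84.5 at 5 h, 46.8 ± 7.17 at 10 h and 21 ± 6.67 at 15 h, a step that was the tail of a fall already under way by 10 h. CDC6 averaged 7.80 ± 1.61 CPM in starved cells, then 25.6 ± 11.8 at 5 h, 365 ± 51.6 at 10 h and 286 ± 6.40 at 15 h. Of the 79 replication and repair genes tested and not called, 23 were highest at 10 h and 51 at 15 h.

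**Figure D4:**
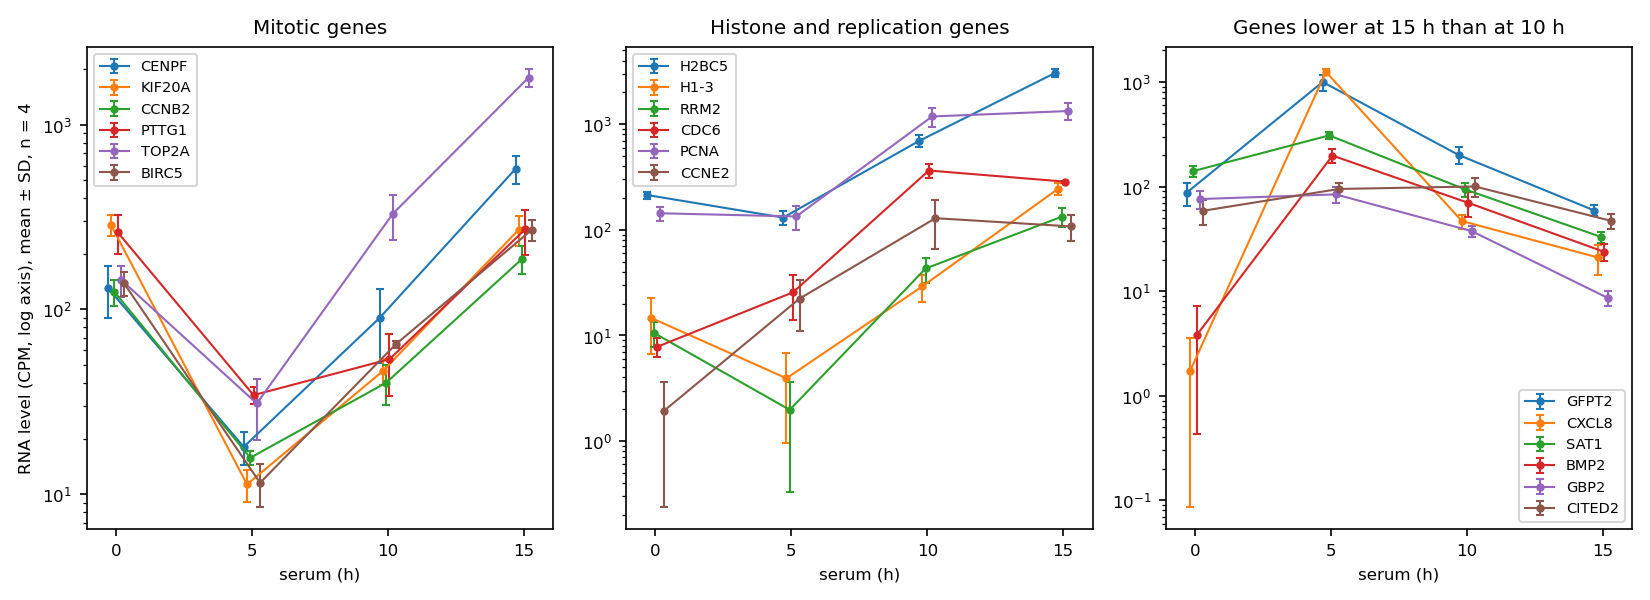
RNA level (CPM, log axis; mean ± SD, n = 4) at 0, 5, 10 and 15 h of serum for 6 mitotic genes (left), 6 histone and replication genes (middle) and 6 genes lower at 15 h than at 10 h (right). Mitotic genes are lowest at 5 h and highest or level with 0 h at 15 h. CDC6, PCNA and CCNE2 were not called between 15 h and 10 h in the fit without a replicate block. Of the 6 falling genes 5 peak at 5 h, and CITED2 peaks at 10 h.

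Footprints of the same step gave a second readout of these genes in separate libraries. In footprints 4493 of 10959 tested genes (41%) were called, 2275 higher (20.8%) and 2218 lower (20.2%), from libraries of 4715658 to 9901322 counts at 15 h and 6307852 to 9604881 at 10 h. Of the 334 genes whose RNA rose, 327 were also called higher in footprints, 7 were not called and 0 were lower; the median log2 change was 1.19 in RNA and 1.05 in footprints. Of the 185 whose RNA fell, 167 were lower in footprints, 17 were not called and 1 was higher, at medians of -0.79 in RNA and -0.54 in footprints. The exception was MAP2K5, with -1.54 ± 0.44 in RNA and 0.27 ± 0.10 in footprints (adjusted p = 0.0285, edgeR). H1-3 rose in footprints by 3.26 ± 0.09, CENPF by 2.36 ± 0.14, KIF20A by 2.88 ± 0.14 and CCNB1 by 1.95 ± 0.08 on the log2 scale. The share of counts from histone genes was 4.27 ± 0.205% in footprints at 15 h and 0.898 ± 0.0915% at 10 h (SD, n = 4 each).

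Some groups with few RNA calls held many in the deeper footprints. Of 60 ribosomal protein genes 42 were lower in footprints and 0 higher, at a median log2 change of -0.21, close to that in RNA. Of 26 ER chaperone genes 22 were lower and 1 higher, and of 23 cholesterol genes 16 were lower and 1 higher. CDC6 and CCNE2 were lower in footprints, with log2 changes of -0.43 ± 0.06 and -0.53 ± 0.07 (adjusted p = 1.87e-07 and 5e-08, edgeR). BMP2 changed by -2.41 ± 0.14 in footprints and -1.55 ± 0.24 in RNA, and SAPCD2 by 1.05 ± 0.25 in footprints and 4.50 ± 1.21 in RNA. Whether any gene's change differed between the assays was not tested.

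**Figure D5:**
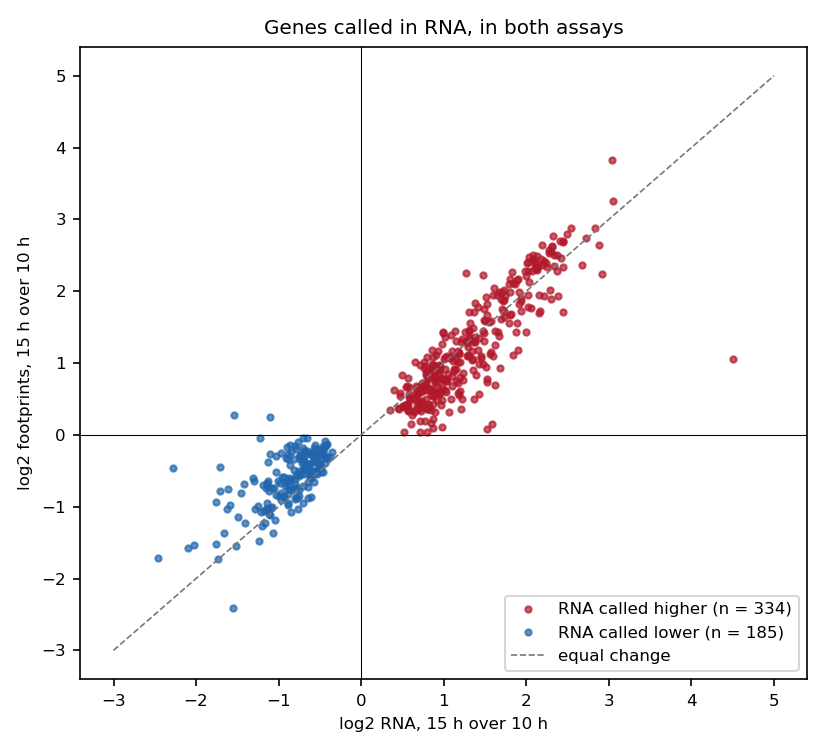
Log2 change at 15 h over 10 h in RNA (x axis) and in footprints (y axis) for the 334 genes called higher (red) and 185 called lower (blue) in RNA; the dashed line marks equal change. Nearly all points lie in the upper right or lower left, and the point far to the right is SAPCD2, at 4.50 in RNA and 1.05 in footprints.

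Promoter sequences of genes that rose are shown because 2 groups that moved together, histone genes and mitotic genes, are known to use different promoter elements. Each runs 5′ to 3′ on the gene's strand from 200 bases before to 30 bases after a RefSeq start on GRCh38.p14. Starts and sequences are RefSeq's. In the 5 mitotic genes, capitals mark CCAAT, the box bound by NF-Y, and TTTGAA, the core of the cell-cycle homology region (CHR) bound by MuvB complexes, on either strand. KIF20A is at chr5:138178912-138179141 (plus strand), CCNB1 at chr5:69166950-69167179 (plus), CCNB2 at chr15:59104946-59105175 (plus), CENPF at chr1:214602995-214603224 (plus) and TOP2A at chr17:40417867-40418096 (minus).
KIF20A: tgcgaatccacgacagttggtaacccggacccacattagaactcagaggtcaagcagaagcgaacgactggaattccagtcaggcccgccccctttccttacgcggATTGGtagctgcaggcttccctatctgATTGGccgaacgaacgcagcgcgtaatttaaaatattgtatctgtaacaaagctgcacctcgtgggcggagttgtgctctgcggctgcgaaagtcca
CCNB1: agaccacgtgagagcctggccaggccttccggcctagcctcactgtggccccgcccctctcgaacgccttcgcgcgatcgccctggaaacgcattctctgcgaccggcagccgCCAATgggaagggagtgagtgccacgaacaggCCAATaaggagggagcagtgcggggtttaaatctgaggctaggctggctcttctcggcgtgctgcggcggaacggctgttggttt
CCNB2: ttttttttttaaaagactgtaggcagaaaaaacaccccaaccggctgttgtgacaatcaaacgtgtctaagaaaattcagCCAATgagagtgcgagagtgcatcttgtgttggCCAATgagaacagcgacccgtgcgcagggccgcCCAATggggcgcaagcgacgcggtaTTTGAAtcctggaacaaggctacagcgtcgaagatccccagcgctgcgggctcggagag
CENPF: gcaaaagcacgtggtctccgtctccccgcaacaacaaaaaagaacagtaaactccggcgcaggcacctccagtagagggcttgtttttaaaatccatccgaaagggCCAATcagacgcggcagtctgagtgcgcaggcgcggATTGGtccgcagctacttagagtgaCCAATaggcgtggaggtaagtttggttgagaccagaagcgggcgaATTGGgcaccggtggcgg
TOP2A: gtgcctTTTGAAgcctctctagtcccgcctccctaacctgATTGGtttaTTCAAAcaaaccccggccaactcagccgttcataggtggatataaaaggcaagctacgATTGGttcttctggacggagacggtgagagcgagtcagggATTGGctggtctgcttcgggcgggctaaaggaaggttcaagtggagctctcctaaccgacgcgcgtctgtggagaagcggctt
In the 3 histone genes capitals mark CCAAT, the TATA box letters TATAAA, the octamer letters TTTGCAT and the H1 box letters AAACACA, also on either strand; a TTTGAA in H2BC3 and a TATAAA in TOP2A are left in lower case. H1-3 is at chr6:26234958-26235187 (minus), H2BC3 at chr6:26043684-26043913 (minus) and H3C10 at chr6:27809851-27810080 (plus).
H1-3: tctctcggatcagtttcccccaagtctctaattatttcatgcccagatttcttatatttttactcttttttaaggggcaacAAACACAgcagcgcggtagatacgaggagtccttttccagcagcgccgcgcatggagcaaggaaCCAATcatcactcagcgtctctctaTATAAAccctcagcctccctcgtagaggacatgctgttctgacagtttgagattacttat
H2BC3: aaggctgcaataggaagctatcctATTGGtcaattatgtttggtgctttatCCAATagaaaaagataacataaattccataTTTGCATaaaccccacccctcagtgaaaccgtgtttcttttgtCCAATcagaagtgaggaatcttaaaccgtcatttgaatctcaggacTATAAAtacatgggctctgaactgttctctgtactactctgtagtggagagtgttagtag
H3C10: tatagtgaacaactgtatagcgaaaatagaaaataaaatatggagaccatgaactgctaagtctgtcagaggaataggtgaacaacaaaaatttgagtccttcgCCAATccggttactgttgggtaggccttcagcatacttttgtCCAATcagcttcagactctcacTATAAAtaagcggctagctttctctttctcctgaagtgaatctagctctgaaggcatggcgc
Each of the 5 mitotic promoters held at least 2 CCAAT boxes within the printed stretch, and CCNB2 and TOP2A also held TTTGAA there. CENPF held TTTGAA further down, 41 bases from the start, and KIF20A and CCNB1 held no TTTGAA in the window searched. Other forms of the CHR were not searched for, so this does not show that the element is absent. Each histone promoter held TATAAA with its first base 30 to 32 bases before the start and its nearest upstream CCAAT with its first base 54 to 76 bases before it.

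Counted over all such windows, from 250 bases before to 50 after each start, the elements were unevenly spread. RefSeq windows were found for 74 of the 87 mitotic genes that rose, 40 of the 44 histone genes and 7291 of the 8775 tested genes, some with several starts. TTTGAA was in 54 of 96 windows (56.2%) of mitotic genes that rose, in 18 of 65 (27.7%) of mitotic genes tested and not called, in 13 of 236 (5.51%) of genes that fell, in 10.6% of windows of all tested genes and in 15.2% of all 35116 windows. CCAAT was in 65 of 96 windows (67.7%) of mitotic genes that rose and 39 of 44 (88.6%) of histone genes, against 35.3% for all tested genes and 34.6% for all windows. Both elements stood together in 41.7% of windows of mitotic genes that rose and in 4.38% of those of all tested genes. TATAAA was in 33 of 44 histone windows (75%) and in 11.5% of all windows, and TTTGCAT was in 22 of 44 (50%) and in 4.46%. AAACACA was in 13.6% of histone windows and 5.64% of all windows. The E2F letters TTCCCGC or TTGGCGC were in 42 of 93 windows (45.2%) of replication and repair genes that did not rise, in 21.9% of those of mitotic genes that rose, in 14.2% for all tested genes and in 9.23% of all windows. TTTGAA was also in 34.1% of histone windows. These are matches of letters on either strand and not measured binding, and short motifs can overlap each other.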

How the data were processed

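The authors deposited raw counts per gene for 16 RNA-seq and 16 Ribo-seq libraries; per the submitters' processing notes the tools were STAR 2.5.4a and featureCounts 1.5.1 on GRCh38. Per the labels' protocols, RNA was extracted with miRNeasy, depleted with Ribo-Zero and made into libraries with the QIAseq miRNA kit; the annotation, the strand setting and the handling of molecular identifiers are not given in the sources used here. Of 19023 gene IDs 18572 matched a symbol and 2193 had 0 counts in all libraries. Listed lengths were multiples of 3 for 96.5%, but whether they span whole coding sequences was not checked. ACTB was listed at 434 bases and HYOU1 at 384.

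Each assay was fitted separately in R 4.3.3 with edgeR 4.0.16 on the deposited counts: filterByExpr, TMM scaling, a robust quasi-likelihood fit of time over all 16 libraries, and the 15 h over 10 h contrast, with Benjamini-Hochberg adjustment over all genes tested and a threshold of 0.05. The other times share in the estimate of the spread. P-values measure the spread between these samples, which the series design calls biological replicates. The fit was tested on simulated data. DESeq2 1.42.0, RLE size factors, scaling without histone genes, other filters, a fit of the 8 libraries, a replicate block and leaving out each library were the alternatives. Counting error alone limits genes of few counts.

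The 12 largest called rises and falls with at least 10 CPM in the higher group and no overlap, up to 4 called members per list with the smallest p, and 14 set genes were named; RHOA, MYH9, SLBP, RRM1, PDIA4 and those in the closing observations were chosen after their values were seen. The members and gene lists were chosen with earlier results of these data known. Promoter windows came from RefSeq on GRCh38.p14, matched by symbol.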

Additional observations from a re-analysis of the deposited data

Results flagged for a closer look

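In 15 of 308 groups of 4 libraries examined, the highest or lowest library stood apart from the other 3 by more than Dixon's 95% critical value; chance gives about 1 in 20. At 15 h, SAPCD2 had 395 CPM in replicate 1 and 13.1 to 20.8 CPM in the others. Replicate 2 of 15 h stood apart in 5 genes: it was low in H2BC3 (809 CPM, others 1032 to 1063) and AURKB (157 CPM, others 182 to 187), and high in KIF4A (204 CPM, others 184 to 186), NCAPD2 (384 CPM, others 214.5 to 219.5) and HYOU1 (97.2 CPM, others 62.0 to 65.6). Replicate 1 of 10 h was high in 6 genes: DLGAP5 (72.7 CPM, others 23.4 to 26.9), H2AZ1 (431 CPM, others 232 to 264), FANCD2 (100.4 CPM, others 73.0 to 75.9), PRC1 (229 CPM, others 136 to 147), RACGAP1 (316.5 CPM, others 200.9 to 212) and NDC1 (153 CPM, others 99.9 to 108). Replicate 2 of 10 h was high in TYMS (69.2 CPM, others 37.5 to 39.6) and low in NUP155 (192 CPM, others 275 to 291). Replicate 3 of 10 h was high in TUBA1B (837 CPM, others 775 to 778). The number flagged is about what that chance rate gives, and the genes share the same libraries. Whether anything sets these libraries apart was not tested.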

How the results depend on the processing

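RNA calls numbered 519, with 334 higher and 185 lower. RLE size factors gave 507, scaling without histone genes 504, filters at 10 summed counts and at 1 count 448 and 466, and DESeq2 555. A fit of the 8 libraries alone gave 378, of which 91 were lower. Leaving out 1 library gave 333 to 717 called, 241 to 497 higher and 75 to 220 lower in RNA, and 3918 to 4380, 1980 to 2144 and 1899 to 2236 in footprints. All 44 histone genes kept their call in every alternative. Of 141 called genes that are named, 105 kept their call without each of the 8 libraries in turn and 36 lost it at least once. The replicate block raised the calls to 1170 (629 higher, 541 lower), and in the 8 libraries alone to 1585 (898 higher, 687 lower). With the block over all 16 libraries, the lists with 0 calls gained 1 higher and 5 lower in ribosome biogenesis, 5 lower in the respiratory chain, 2 lower in glycolysis, 1 higher and 2 lower among SRF and YAP targets, 3 higher in the E2F list, and 1 higher each in the mitochondrial, proteasome and housekeeping lists, and 11 ribosomal protein and 13 ER genes were lower. Deviations of same-numbered libraries correlated at 0.633, 0.712, 0.446 and 0.0595 over 4132 genes, and 15 h replicate 4 correlated best, at 0.482, with 10 h replicate 1, so the numbers were not taken as pairing. Signs turned only in genes that were not called. In RNA the range over the fits without 1 library was -1.16 to 0.155 for DDIT4 (0.047 without 15 h replicate 4), -0.336 to 0.080 for ACTB (0.0145 without 15 h replicate 4) and -0.442 to 0.072 for CCNE2. In footprints PCNA ran from -0.0342 to 0.0449 over such fits, and was -0.00125 in the 8 libraries, -0.000733 there with the replicate block, -0.00309 with scaling without histone genes, and -0.00515 and -0.00535 with the filters at 10 and 1 counts. The cause was not tested. RNA depth limits calls of genes with few counts.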

Other observations

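The genes in this section were chosen after their values were seen. Nuclear transport genes were among the rises outside the lists. KPNA2, an importin alpha, averaged 392 ± 33.4 CPM at 15 h and 159 ± 12.2 CPM at 10 h (log2 change 1.30 ± 0.15, adjusted p = 2.44e-06, edgeR), and CSE1L, which exports importins, 762 ± 166 CPM at 15 h and 387 ± 136 CPM at 10 h (log2 change 0.98 ± 0.21, adjusted p = 0.00557, edgeR). The pore genes NDC1 and NUP155 rose by 1.03 ± 0.19 and 0.58 ± 0.15. HMGB2, a chromatin protein, averaged 557 ± 117 CPM at 15 h and 216 ± 60.8 CPM at 10 h (log2 change 1.37 ± 0.19, adjusted p = 3.75e-05, edgeR), and EZH2, the methyltransferase of Polycomb complexes, 101 ± 18.2 CPM at 15 h and 61.4 ± 6.13 CPM at 10 h (log2 change 0.72 ± 0.17, adjusted p = 0.0107, edgeR).

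NR1D2, a nuclear receptor of the circadian clock, averaged 84.7 ± 10.7 CPM at 15 h and 26.7 ± 3.50 CPM at 10 h (log2 change 1.67 ± 0.19, adjusted p = 1.28e-06, edgeR). The plasminogen activator genes moved in opposite directions. PLAT, the tissue type, had 462, 513, 625 and 499.9 CPM at 15 h and 1046, 1352, 1394 and 1317 CPM at 10 h (log2 change -1.28 ± 0.12, adjusted p = 1.52e-07, edgeR), and PLAU, the urokinase type, had 68.3, 41.1, 58.1 and 85.4 CPM at 15 h and 26.6, 41.3, 29.7 and 31.5 CPM at 10 h (log2 change 0.96 ± 0.22, adjusted p = 0.00873, edgeR), with overlap in replicate 2. FTL, the ferritin light chain, and NQO1, a quinone reductase, fell, with log2 changes of -0.73 ± 0.15 and -0.61 ± 0.12. HSPA8, a constitutive chaperone, fell (log2 change -0.76 ± 0.13, adjusted p = 0.000639, edgeR).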
